A study of Sesamum indicum with 195 samples.

Results

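Roots of the waterlogging-tolerant sesame genotype ZZM2541 (R2G) were compared 2 h after drainage, at 38 h, with roots of the same genotype at 36 h, when the pots were still flooded. The comparison rests on 6 of the 195 root samples of the series, chosen by genotype and time alone, with 3 at each time. Plants of R2G and of the susceptible genotype Ezhi No. 2 (EG) had been grown in pots to the flowering stage, flooded to 3 cm above the soil for 36 h and then drained for up to 12 h, while control pots (CK) of both genotypes were watered normally. At each time the replicates were single plants from 3 replicate pots, and p-values measure the spread between these samples. The paper does not say whether a pot was sampled at more than 1 time. The other groups used were EG roots at 38 and 36 h, R2G roots at 14 and 12 h of flooding, R2G roots at 32 h of flooding with their control, and R2G roots at 40 h, 4 h after drainage, with their control, again with 3 samples each. Neither 36 h nor 38 h had a control of its own, so drainage and 2 h of elapsed time cannot be told apart from the 6 samples alone.

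In flooded soil, oxygen reaches roots slowly, and cells turn from respiration in the mitochondria to glycolysis and fermentation while much of their gene activity is held back. Drainage lets air back in, which restores respiration and exposes the tissue to reactive oxygen species. Enzymes such as superoxide dismutase, catalase and peroxidase remove these molecules.

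The deposited table gives 1 value per gene and sample under the name TPM. In the 6 samples, between 95.9% and 97.4% of the values below 100 reads were whole multiples, within 0.02 of a read, of a single step per sample, and when genes were split by length in 3 classes the lowest shares were 96.0% in the shortest and 95.3% in the longest. The values are therefore given here as CPM, the reads of a gene relative to a fixed total and not divided by gene length, and levels of different genes are not compared. The steps put the depth at between about 25400000 and 45600000 reads per sample. Correlations of log2(CPM + 1) between replicates were 0.983 to 0.988 at 38 h and 0.970 to 0.989 at 36 h. Of the 20271 genes, 18178 had a mean of at least 1 CPM over all samples and were tested with limma. A gene was said to have risen or fallen at a Benjamini-Hochberg adjusted p below 0.05 and a change of at least 1 on the log2(CPM + 1) scale, which understates the change of genes with few reads. The RefSeq gene table of genome v1.0 gives 15 of the gene identifiers a descriptive name, so that most genes are given by identifier, with no role. None of the 15 is a defining marker of roots. The floral homeotic gene AP3 (LOC105159317), known from flowers, had 1.76 to 2.86 CPM at 38 h and 1.38 to 2.93 CPM at 36 h.

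More genes were higher than lower after drainage. In R2G roots at 38 h, 4353 genes had risen and 875 had fallen relative to 36 h, 23.9% and 4.81% of those tested. Levels of all 3 drained samples were above all 3 flooded samples for 4333 of the risers and below them for 841 of the fallers, beside 51.9% and 14.3% of all tested genes. The median change was 1.48 among risers and -1.39 among fallers, and 1012 risers and 152 fallers changed by at least 2. Together the risers took 193211, 212073 and 196437 CPM at 38 h, against 47128, 63165 and 69702 at 36 h. The fallers took 53963, 37790 and 48104 CPM at 38 h, against 177695, 109966 and 117143 at 36 h. The classes were chosen by their direction in these 6 samples, so that their lack of overlap, their median changes and their sums are a description.

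The balance between risers and fallers depended on how the samples were scaled. With the deposited values the median gene changed by 0.41. With every sample divided by its size factor, the median of its ratios to the geometric mean of all samples (median-ratio scaling), that figure was -0.01. On that scaling 2351 genes rose and 2172 fell, so that the share of risers among the changed genes was 52.0% instead of 83.3%. Median-ratio scaling takes the typical gene as unchanged, so the small median change is built in and the more even split follows in part from it. All 875 fallers and 2351 of the 4353 risers kept their call. With edgeR on reads recovered from the steps, an alternative chosen after seeing the data, TMM scaling gave 3319 risers and 2287 fallers, and scaling by totals alone gave 5409 and 1110. The samples differed in composition as well. The 100 genes with most reads took 19.7% to 20.7% of all reads at 38 h, against 25.7% to 26.1% at 36 h, and the median gene had 11.7 to 12.1 CPM at 38 h, against 6.62 to 7.95 CPM at 36 h. At least 1 CPM was found for 16935 to 16998 genes at 38 h, against 15580 to 16141 genes at 36 h. Replicate 1 at 36 h lay furthest out, with a size factor of 0.659 against 0.752 and 0.799 in the other flooded samples, and without it 4501 genes passed the test. The part of this shift in composition in the rises of single genes was not tested. CPM values are shares of a total, and a change in RNA per root cannot be told apart from a change in share.

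Some genes went from a low level to a higher one, counted on the deposited values alone. In the samples at 36 h, 1 read was worth 0.0326 to 0.0393 CPM, so that less than 1 CPM can still hold several reads. There were 75 genes with less than 1 CPM in all 3 samples at 36 h and at least 5 CPM in all 3 at 38 h, and 5 genes with the reverse pattern. Another count, of genes listed at 0 in all samples at 36 h and above 1 CPM in all samples at 38 h, gave 8, with 0 in the reverse direction.

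The largest rise was that of LOC105166098, which the RefSeq table of genome v1.0 places on linkage group 7 between 3434543 and 3437142. It had 111, 157 and 215 CPM at 38 h, against 0.364, 1.18 and 0.847 CPM at 36 h, a log2 change of 6.47 (SE 0.28, adjusted p = 5.57e-05, limma). The genes described here were chosen among those whose samples at 38 and 36 h do not overlap, and here the lowest drained sample was far above the highest flooded one. Control roots had 370 ± 61.7 CPM (SD, n = 3) at 40 h, and drained roots at that time had 340 ± 124 CPM, a change of -0.19 that did not pass the test (adjusted p = 0.63). LOC105156613, on linkage group 2 from 17762849 to 17765569, had 69.6, 85.8 and 83.5 CPM at 38 h, against 0.218, 0.0787 and 0.619 CPM at 36 h, a change of 5.96 (SE 0.20). Unlike LOC105166098 it was still below control 4 h after drainage, with 93.2 ± 10.4 CPM in drained roots and 375 ± 126 CPM in control roots at 40 h (change -1.94, adjusted p = 0.0013, limma).

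The next 4 of the largest rises also started from a few CPM at 36 h. LOC105156407 on linkage group 2 averaged 192 ± 29.9 CPM at 38 h and 2.00 ± 1.24 CPM at 36 h (SD, n = 3 each). LOC105157563 and LOC105157290, both on linkage group 3, averaged 157 ± 44.5 and 129 ± 43.8 CPM at 38 h, against 1.97 ± 0.37 and 1.52 ± 0.87 CPM at 36 h. LOC105157575 on linkage group 1 averaged 87.6 ± 13.1 CPM at 38 h and 1.33 ± 0.39 CPM at 36 h. Its course in flooding was another, with a highest mean of 1474 CPM from 2 to 36 h, beside 46.15 to 170.8 CPM in the other largest rises. For each of the 6 genes, 36 h was the lowest of the 22 times of the stress series, and all 6 stayed above 30 CPM at every mean from 40 to 48 h. The values at 36 and 38 h chose these genes, so that a lowest level at 36 h can follow in part from the choice. The 6 rises passed the test on both scalings and in both edgeR fits.

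Of the 6 largest falls, LOC105156324, LOC105166583 and LOC105168042 had their highest mean of the 22 times at 36 h. LOC105176284 was higher at 1 other time, LOC105160941 at 6 and LOC105173722 at 10. A high rank of 36 h can follow in part from the choice of these genes by their fall from 36 to 38 h. LOC105156324, on linkage group 2 from 14979383 to 14982218, had 41.9, 4.17 and 16.96 CPM at 38 h, against 825, 310 and 239 CPM at 36 h, a change of -4.64 (SE 0.76, adjusted p = 0.0016, limma). The 3 drained samples were spread widely. LOC105160941, on linkage group 4 from 13508246 to 13518258, had 38.9, 14.6 and 19.6 CPM at 38 h, against 640, 356 and 345 CPM at 36 h, a change of -4.20 (SE 0.37). At 40 h it had 12.5 ± 5.52 CPM in drained roots and 57.3 ± 16.8 CPM in control roots, and was lower by the test (change -2.15, adjusted p = 0.0025). LOC105176284, LOC105166583 and LOC105168042 averaged 1.21 ± 0.34, 7.53 ± 3.62 and 5.44 ± 2.46 CPM at 38 h, against 37.6 ± 19.4, 96.6 ± 51.0 and 77.5 ± 56.7 CPM at 36 h. Their differences from control at 40 h did not pass the test (adjusted p = 0.43, 0.32 and 0.070, limma).

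LOC105173722, on linkage group 11 from 9608436 to 9613393, differed from the other large falls in its controls. It had 293, 154 and 144 CPM at 38 h, against 2329, 1649 and 2154 CPM at 36 h, a change of -3.43 (SE 0.29, adjusted p = 1.10e-04, limma). Control roots held 2402 ± 646 CPM at 32 h and 2995 ± 558 CPM at 40 h, and the level at 36 h was near these. Flooded roots at 32 h were uneven, with 2930, 399 and 259 CPM, so that levels far below control were also found before drainage. Their difference from control did not pass the test (adjusted p = 0.14, limma). At 40 h LOC105173722 had 493 ± 37.9 CPM in drained roots, a change of -2.59 relative to control (adjusted p = 1.07e-04, limma).

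**Figure D1:**
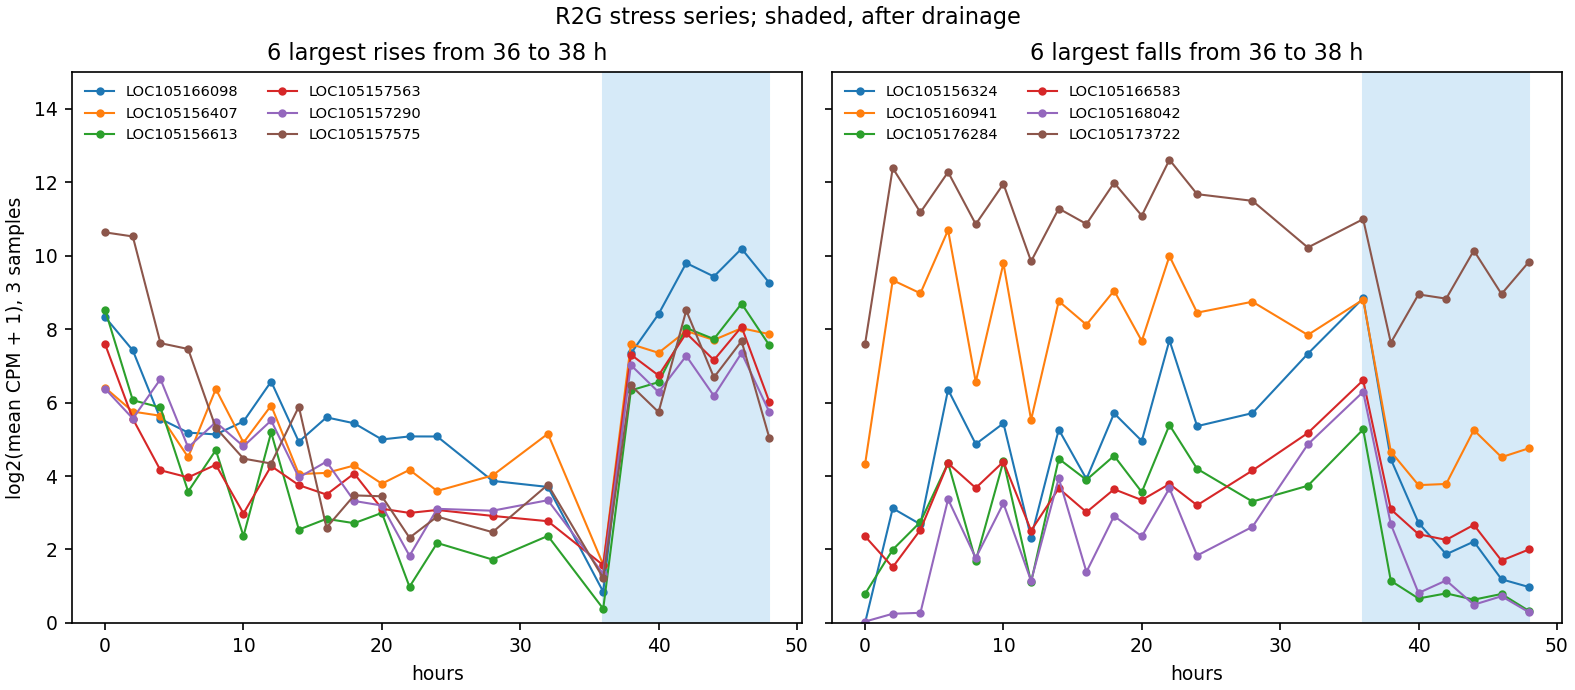
Mean expression of the 6 genes with the largest rises (left) and the 6 with the largest falls (right) between 36 and 38 h in R2G, as log2(mean CPM + 1) of 3 samples against hours of the stress series, shaded after drainage. Each gene on the left has its lowest point at 36 h, and LOC105166098 goes from 0.797 CPM at 36 h to 161 CPM at 38 h. The genes were chosen by their values at 36 and 38 h.

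Among the called genes with most reads, the falls were called on both scalings and the rises on 1. LOC105171585 on linkage group 10 had 2276, 1933 and 2571 CPM at 38 h, against 6437, 4501 and 5212 CPM at 36 h, a change of -1.25 (SE 0.26, adjusted p = 0.0048, limma). Its drained level was still above control at 40 h, with 2640 ± 1689 CPM in drained roots and 366 ± 103 CPM in control roots (change 2.70). LOC105155956, LOC105175452 and LOC105171288 changed by -1.03, -1.16 and -1.45. The fall of LOC105155956 missed the threshold without replicate 2 at 38 h (-0.94) or replicate 3 at 36 h (-0.93). The 4 rises with most reads, of LOC105172891, LOC105175765, LOC105165479 and LOC105170682, were 1.15, 1.08, 1.32 and 1.44 as deposited. After median-ratio scaling they were 0.60, 0.53, 0.78 and 0.89 and none was called. Those of LOC105175765 and LOC105165479 also missed the threshold without replicate 2 or 3 at 38 h or replicate 1 at 36 h, with 0.79 and 0.84 in the last case.

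Of the 15 genes with a descriptive name, 14 were tested, and 4 rose and 2 fell (28.6% and 14.3%, beside 23.9% and 4.81% of all genes). Their median change was 0.26, beside 0.41 over all tested genes. After median-ratio scaling 1 of the 14 rose and 3 fell (7.14% and 21.4%, beside 12.9% and 11.9% of all genes). The 15th, MT, had a mean under 1 CPM.

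GAPDH (LOC105156676), an enzyme of glycolysis, had 506, 362 and 273 CPM at 38 h, against 1359, 714 and 1008 CPM at 36 h. It fell by 1.43 on the log2 scale (SE 0.30, adjusted p = 0.0049, limma) with no overlap between the groups, and by 1.98 after scaling. At 40 h it had 357 ± 157 CPM in drained roots and 216 ± 37.1 CPM in control roots, a difference that did not pass the test (adjusted p = 0.12). IPS (LOC105176482) had 2.17, 1.14 and 0.936 CPM at 38 h, against 4.00, 6.22 and 3.19 CPM at 36 h, a fall of 1.18 (adjusted p = 0.0072) that was -0.96 without replicate 2 at 36 h.

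Of the named genes for the removal of reactive oxygen species, 2 were called as deposited. SOD (LOC105166989), a superoxide dismutase, had 43.8, 48.1 and 39.5 CPM at 38 h, against 13.8, 15.03 and 17.2 CPM at 36 h, a change of 1.46 (SE 0.14, adjusted p = 1.83e-04, limma). Peroxidase (LOC105177799) had 293, 315 and 253 CPM at 38 h, against 119, 115 and 183 CPM at 36 h, a change of 1.07 (adjusted p = 0.0030). Both groups were clear of each other in both genes, yet after median-ratio scaling the changes were 0.93 and 0.52 and neither was called. With edgeR and TMM scaling they were 1.05, past the threshold, and 0.59. Peroxidase also missed the threshold without replicate 2 at 38 h (1.00, just under it), replicate 1 at 36 h (0.97) or replicate 2 at 36 h (0.95). At 40 h SOD had 37.9 ± 3.99 CPM in drained roots and 42.5 ± 4.37 CPM in control roots. That difference did not pass the test (adjusted p = 0.33, limma). Peroxidase was then above control, with 177 ± 71.3 CPM in drained roots and 56.5 ± 5.23 CPM in control roots (change 1.56, adjusted p = 0.0029, limma). Catalase (LOC105178686) had 87.4, 83.2 and 82.3 CPM at 38 h, against 74.0, 57.9 and 48.5 CPM at 36 h, a change of 0.50 that was too small to be called and was -0.04 after scaling.

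CYP81Q1 (LOC105177765), which makes the lignan sesamin, rose on every scaling. It had 36.5, 45.1 and 27.9 CPM at 38 h, against 4.66, 9.84 and 11.4 CPM at 36 h, a change of 2.01 (SE 0.31, adjusted p = 0.0013, limma) as deposited and 1.52 after scaling. At 40 h it was above control, with 42.3 ± 19.1 CPM in drained roots and 18.3 ± 2.08 CPM in control roots (change 1.07, adjusted p = 0.025). UGT88D6 (LOC105160417), a glycosyltransferase, had 32.1 ± 3.44 CPM at 38 h and 25.7 ± 7.80 CPM at 36 h, a change of 0.35 with overlapping groups that did not pass the test.

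Among the genes with a descriptive name, no lipid gene was called as deposited. Other lipid genes could not be told from their identifiers. DGAT1 (LOC105173637), which completes the synthesis of triacylglycerol, had 40.9, 38.6 and 43.0 CPM at 38 h, against 62.6, 63.6 and 72.2 CPM at 36 h. The groups did not overlap, and its change of -0.68 (adjusted p = 0.0022, limma) was past the threshold only after median-ratio scaling (-1.22) or with edgeR and TMM (-1.16). The fatty acid desaturases FAD7 (LOC105167042) and FAD2 (LOC105163532) had changes of -0.29 and -0.49, and SeMGD2 (LOC105166432), a galactolipid synthase, of 0.06, none of them called. FAD2 had 1.57 CPM or less on average at both times, against 28.2 ± 9.71 CPM in control roots at 32 h and 16.4 ± 3.98 CPM at 40 h, and at 40 h drained roots were below control by 3.00 on the log2 scale (adjusted p = 2.44e-04). PPO (LOC105176878) had 1.02, 1.05 and 0.110 CPM at 38 h, against 0.0727 CPM in 1 flooded sample and a listed 0 in the others. Its change of 0.70 was not called with a pseudocount of 1 and was called with 0.1 (2.43) and by edgeR. The cytoskeletal gene beta-actin (LOC105159390) rose by 1.18 as deposited, to 436 ± 51.3 CPM at 38 h, against 194 ± 41.8 CPM at 36 h, and by 0.63, not called, after scaling.

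**Figure D2:**
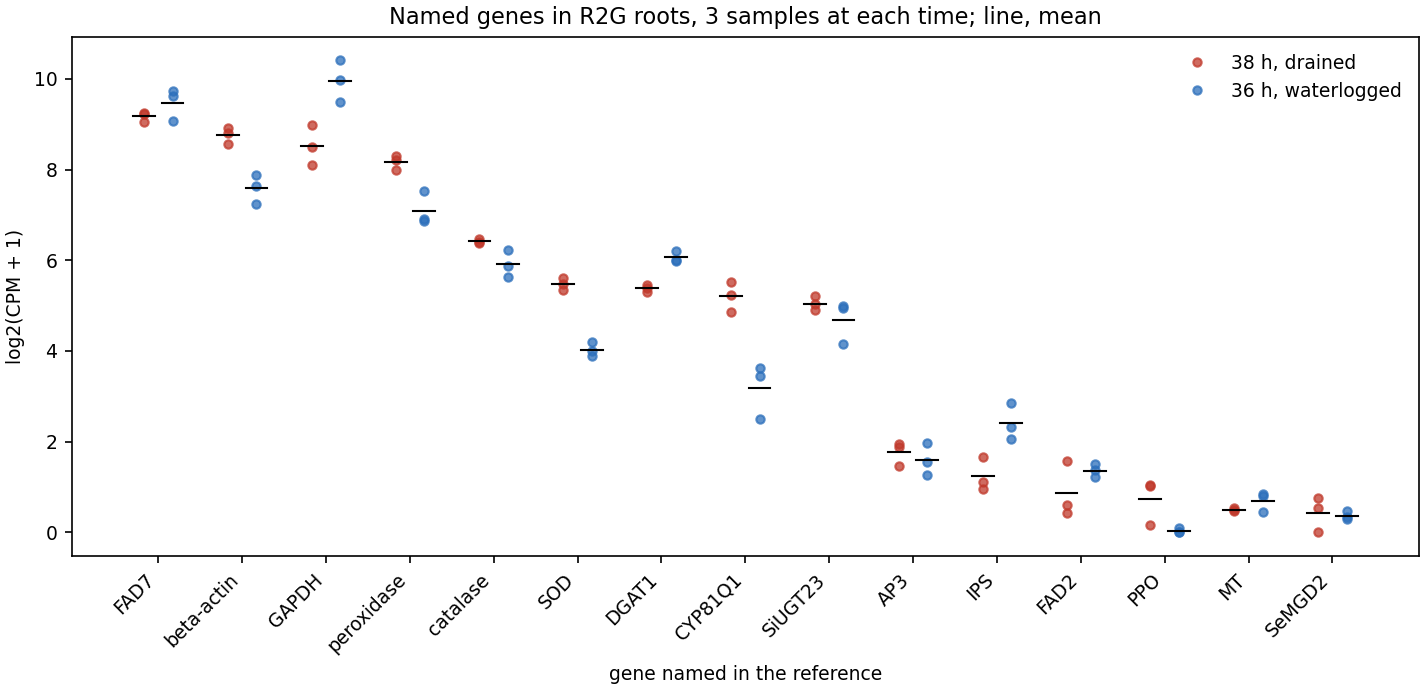
Expression of the 15 genes with a descriptive name in the 3 samples of R2G roots at 38 h (red, left) and the 3 at 36 h (blue, right), as log2(CPM + 1) with a line at the mean. CYP81Q1, SOD and beta-actin lie higher at 38 h in all samples, and GAPDH, DGAT1 and IPS lie lower.

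Where a gene stood before and after the step was read at the nearest times with a control. At 32 h of flooding, 518 genes were higher and 3150 lower than in control roots (2.85% and 17.3% of genes tested), or 899 and 2330 after scaling. Of the 3150 repressed genes, 1305 rose after drainage, 41.4% of that list and 30.0% of the risers, beside 23.9% of all genes. Of the 518 induced genes, 191 fell, 36.9% of that list and 21.8% of the fallers, beside 4.81% of all genes. In the other direction, 8 induced genes rose and 77 repressed genes fell. With all comparisons scaled by median ratio, 705 of the 2330 repressed genes rose (30.3%, beside 12.9% of all genes) and 490 of the 899 induced genes fell (54.5%, beside 11.9%). Without replicate 1 of the 32 h control, the list at 32 h shrank to 251 higher and 1772 lower genes. The share of the repressed genes that rose was then 40.5%, and the share of the induced genes that fell was 41.0%. Replicate 1 of the flooded roots at 32 h also stood apart, with a size factor of 0.788 against 0.908 and 0.912. Without it 714 genes were higher and 3434 lower than control, of which 166 induced genes fell (23.2%) and 50 rose, and 1204 repressed genes rose (35.1%) and 176 fell. Neither list shares a sample with the step from 36 to 38 h. Most risers, 3040 of the 4353, had not been called at 32 h.

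At 40 h, 437 genes were higher and 2676 lower in drained than in control roots (2.40% and 14.7%), or 581 and 2339 after scaling. Of the 1305 genes that were repressed at 32 h and rose, 475 (36.4%) were still lower than control at 40 h, 821 (62.9%) were not called and 9 were higher. Of the 1768 repressed genes that were not called from 36 to 38 h, 1149 were lower at 40 h. In the 1305 genes the median difference from control was -1.56 at 32 h and -0.75 at 40 h, with a median rise of 1.65 between 36 and 38 h. Of the 191 induced genes that fell, 43 (22.5%) were still higher than control at 40 h, 147 were not called and 1 was lower. Among the genes not called at 32 h, 75 of the 3040 risers were higher and 143 lower than control at 40 h, and 24 of the 607 fallers were higher and 99 lower. No test was made between these shares.

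The median gene of each class shows the size of the step against the whole course. In the 1305 genes repressed at 32 h that rose, the median was 26.9 CPM at 0 h, 3.93 CPM at 32 h, 2.12 CPM at 36 h, 10.7 CPM at 38 h, 12.2 CPM at 40 h and 20.6 CPM at 42 h, while control roots had 16.9 CPM at 32 h and 24.3 CPM at 40 h. In the 3040 risers not called at 32 h, the median was 11.8 CPM at 32 h, 6.48 CPM at 36 h and 21.2 CPM at 38 h, beside 20.2 CPM in control roots at 40 h. Their level at 38 h was near that of control roots at 40 h, and their level at 36 h was below that at 32 h. Both readings can follow in part from how the class was chosen, by a rise from 36 to 38 h and no call at 32 h. In the 191 genes induced at 32 h that fell, the median was 65.3 CPM at 32 h, 113 CPM at 36 h, 34.5 CPM at 38 h and 21.4 CPM at 40 h, beside 12.2 CPM in control roots at 40 h. In the 607 fallers not called at 32 h it was 16.6 CPM at 32 h, 30.2 CPM at 36 h and 9.30 CPM at 38 h. Replicate 1 at 32 h had medians of 98.6 and 28.3 CPM in the 2 classes of fallers, and without it their means at 32 h were 48.6 and 10.7 CPM, beside 13.2 and 14.1 CPM in control roots. The values at 32, 36 and 38 h chose these genes, so the contrasts between these times and with control roots are a description.

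**Figure D3:**
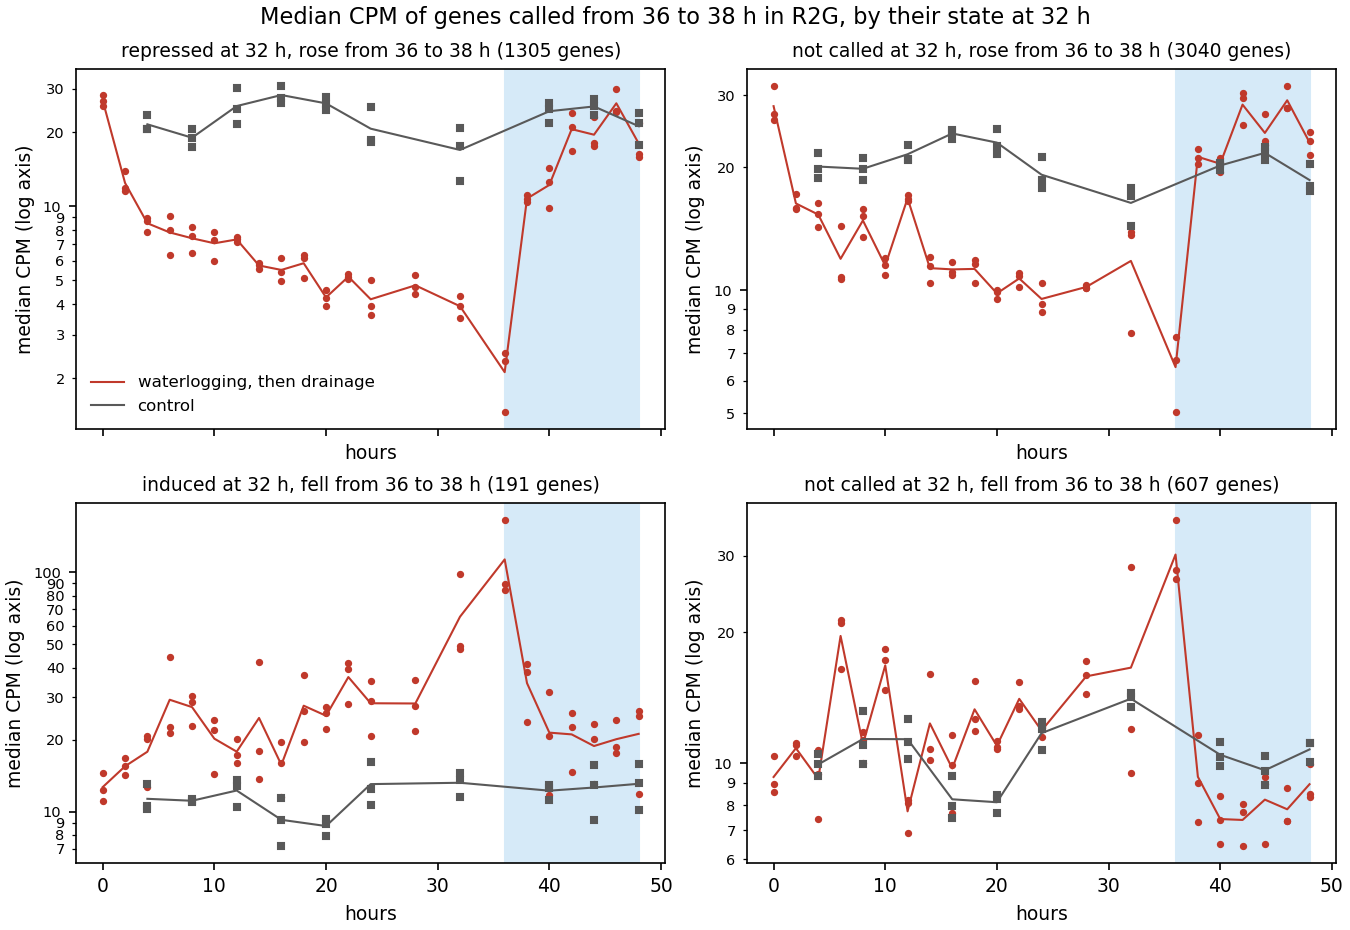
Median CPM (log axis) of 4 classes of genes against hours, in the R2G stress series (red, shaded after drainage) and in control roots (grey), with a point for each sample and a line through the means. The mean at 36 h is the lowest of the stress series in both classes of risers and the highest in both classes of fallers, where replicate 1 at 32 h lies above 2 of the 3 samples at 36 h. The classes were chosen in part by the values at 36 h.

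The same 2 h in EG roots gave a similar picture. In EG, 3251 genes rose and 781 fell from 36 to 38 h (17.9% and 4.30% of genes tested), or 1855 and 1733 after scaling. Of the R2G risers, 2819 also rose in EG, 64.8% of the R2G list and 86.7% of the EG list. Of the R2G fallers, 527 fell in EG, 60.2% of the R2G list and 67.5% of the EG list. Only 1 riser fell in EG, and only 1 faller rose there. The R2G risers had a median change of 1.20 in EG, beside 1.48 in R2G, and the fallers had -1.19, beside -1.39, in lists chosen on the R2G values. Of the R2G risers and fallers, 98.9% and 98.5% had the same sign in EG, beside 85.4% of all tested genes. Over all 18178 genes Pearson's r between the 2 changes was 0.89 and Spearman's rho 0.87, across genes that are not independent replicates. The 2 genotypes share no sample.

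When the difference between the genotypes was itself tested, 2 genes passed, 1 with a higher and 1 with a lower change in R2G (0.0055% of genes tested in each direction). The median difference over all genes was 0.11 (interquartile range -0.11 to 0.37), with a median standard error of 0.29. An unadjusted p below 0.05 (limma) was reached by 1884 of the 18178 genes, 1422 with a higher change in R2G and 462 with a lower one. These figures are for the deposited values. After median-ratio scaling the median difference was 0.01, a small value that this scaling largely builds in, and 1909 genes reached that p, not split by direction. Without replicate 1 of R2G at 36 h the median difference was 0.07 as deposited. A spread shared by all 195 samples gave 54 genes, and a pseudocount of 0.1 gave 0. In LOC105157235, on linkage group 3 from 4690578 to 4692636, R2G roots had 5.11, 3.31 and 3.89 CPM at 38 h, against 7.69, 12.2 and 10.3 CPM at 36 h. EG roots had 5.10, 3.81 and 4.09 CPM at 38 h, against 1.72, 1.03 and 0.970 CPM at 36 h. The drained levels of the genotypes lay together and the flooded levels apart, and the changes were -1.11 in R2G and 1.26 in EG, a difference of -2.37 (SE 0.30, adjusted p = 0.041, limma). It did not pass in a fit blocked on replicate number (adjusted p = 0.145), nor with any of 9 of the 12 samples left out. In LOC105173271, on linkage group 11, R2G roots were listed at 0 in 5 of the 6 samples, with 0.0787 CPM in the other. EG roots had 7.81, 5.40 and 5.21 CPM at 38 h, against 41.8, 41.4 and 30.9 CPM at 36 h. The difference of 2.42 (adjusted p = 0.011, limma) is thus that between a fall in EG and no detected expression in R2G. GAPDH had changes of -1.43 in R2G and -0.48 in EG, and CYP81Q1 of 2.01 in R2G and 3.21 in EG, and neither difference passed the test (adjusted p = 0.46 and 0.55).

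**Figure D4:**
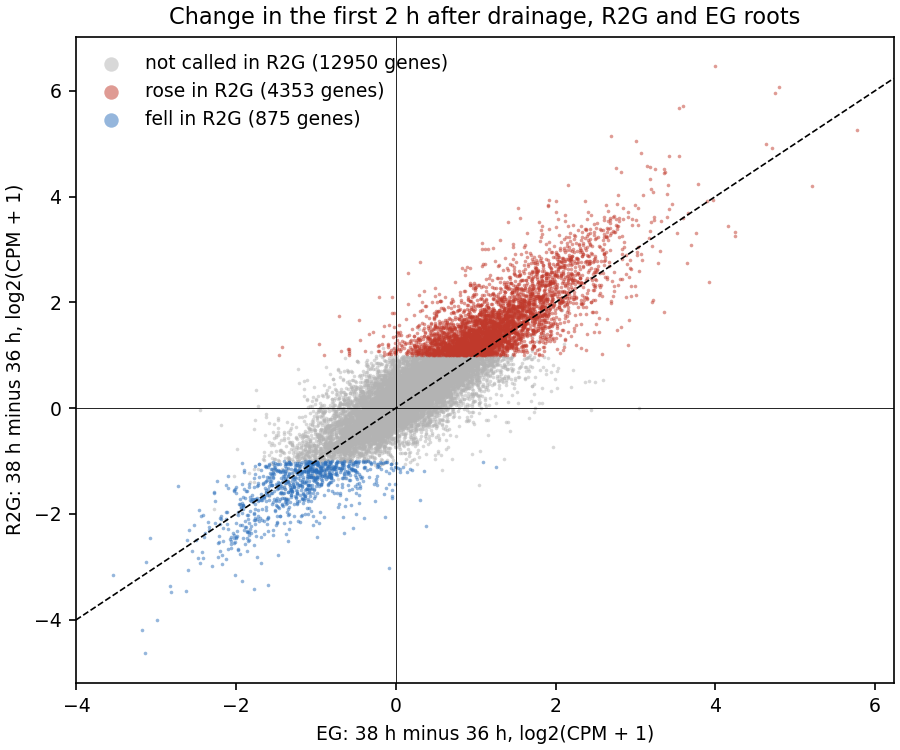
Change from 36 to 38 h on the log2(CPM + 1) scale in EG roots (horizontal) and R2G roots (vertical) for 18178 genes, with those that rose in R2G in red (4353) and those that fell in blue (875), and a dashed line of equal change. The points follow the line (r 0.89 across genes), and few of the coloured genes have the opposite sign in EG.

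Flooded roots a day earlier gave a step of 2 h at the same clock hours without drainage. From 12 to 14 h of flooding, 616 genes rose and 1043 fell in R2G (3.39% and 5.74% of genes tested), or 874 and 769 after scaling. The drainage step ran against it more often than with it. Of the R2G risers after drainage, 709 had fallen from 12 to 14 h, 16.3% of the risers and 68.0% of the genes that fell then, and 48 had risen. Of the fallers, 170 had risen from 12 to 14 h, 19.4% of the fallers and 27.6% of the genes that rose then, and 16 had fallen. The difference between the drainage step and the flooded step passed the test for 5910 genes in the higher and 1618 in the lower direction (32.5% and 8.90%), or 3398 and 3590 after scaling. GAPDH had 983 ± 334 CPM at 14 h and 208 ± 49.0 CPM at 12 h, and its drainage step was lower than its flooded step by 3.64 on the log2 scale (SE 0.43, adjusted p = 1.48e-05, limma).

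The level at 12 h was itself uneven with its neighbours. GAPDH (LOC105156676) had a mean of 1651 CPM at 10 h, 208 CPM at 12 h, 983 CPM at 14 h, 507 CPM at 16 h and 1287 CPM at 18 h, and LOC105160941 had 887, 45.2, 434, 278 and 529 CPM at the same times. The part of this alternation in the counts from 12 to 14 h was not tested. With the mean of 5 flooded steps of 2 h (4 to 6, 8 to 10, 12 to 14, 16 to 18 and 20 to 22 h) in its place, an alternative chosen after seeing the data, 422 genes rose and 503 fell in flooding, and the drainage step differed from that mean for 5025 genes in the higher and 1567 in the lower direction. Those 5 steps do not share clock hours with drainage, apart from the one from 12 to 14 h. All 5 begin at every second sampled time, so an alternation between sampled times would stay in their mean. Across genes their mean had a Pearson's r of -0.375 with the drainage step, and the part of the alternation in these figures was not tested. Of the genes called in R2G, LOC105156613 and LOC105166098 had the largest differences upward from the 12 to 14 h step, 8.53 (SE 0.35) and 8.07 (SE 0.37, adjusted p = 4.28e-08, limma). LOC105160941 and LOC105176284 had the largest downward, -7.46 and -7.28.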

How the data were processed

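Members and gene lists were chosen with earlier results of these data known. The authors cleaned the reads with FastQC and Trimmomatic 0.32, mapped them to sesame genome v1.0 with STAR and counted unique matches per gene. The deposited values carry the name TPM, but their steps are those of CPM, so they were treated as CPM and the log2(CPM + 1) test planned for TPM was kept. Other than the 6 samples at 36 and 38 h, no reads were recovered, and over all 195 samples 84.4% to 97.7% of low values were whole. The test was that of limma 3.58.1 (R 4.3.3; linear models, empirical Bayes with a trend), fitted to the compared samples, with Benjamini-Hochberg adjustment over 18178 genes, and edgeR 4.0.16 (quasi-likelihood) on recovered reads as an alternative. In simulated data for the comparison of R2G at 38 and 36 h, limma recovered 174 of 200 genes changed by 2, with 7 false calls among 18178 genes. Named genes were the 6 largest non-overlapping rises and falls with a mean of at least 10 CPM in 1 group, the 4 called genes with most reads in each direction and the largest differences from EG and from 12 to 14 h among called genes. Outside that rule, and added after the table was read, are the 15 genes with a descriptive name in the RefSeq table, to which all 20271 identifiers matched, and LOC105173271, named after its values were seen. Lists by protein motif and promoter motif, leaf markers included, were not used here. Alternatives were a pseudocount of 0.1, other filters, median-ratio scaling, a replicate block, a shared spread and each replicate left out. Python 3.11.15 and matplotlib 3.10.9 were used for summaries and figures.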

Additional observations from a re-analysis of the deposited data

Results flagged for a closer look

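The change from 36 to 38 h differed between the genotypes, by a test of the difference itself, in 2 genes. These were LOC105157235, with a difference of -2.37 between R2G and EG (lower in R2G, where all 3 drained samples lay below the flooded ones, and higher in EG, where all 3 lay above), and LOC105173271, with 2.42, which was listed at 0 in 5 of 6 R2G samples. LOC105157235 lost its call with the replicate number as a block (adjusted p = 0.145) and in 9 of the 12 fits with 1 sample left out, those without replicate 2 or 3 of R2G at 38 h, replicate 2 or 3 of R2G at 36 h, any replicate of EG at 38 h, or replicate 2 or 3 of EG at 36 h. LOC105173271 kept its call with the block (adjusted p = 0.029) and lost it in 3 of the 12, without replicate 2 or 3 of R2G at 38 h or replicate 2 of R2G at 36 h, where 0 genes passed limma's test (1320, 1445 and 1573 genes at an unadjusted p below 0.05). The change of LOC105157235 in R2G alone missed the threshold without replicate 2 at 38 h (-0.99) or replicate 2 at 36 h (-0.97).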

How the results depend on the processing

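Of 99 alternatives for the counts of called genes, 88 stayed within 1.5 times the count reported, and no named gene reversed in 501 alternatives, of which 469 left it on the same side of the threshold. The tally of counts takes both directions together. It thus includes median-ratio scaling of R2G at 38 against 36 h, with 4523 called genes. There 2351 rose and 2172 fell, and 3226 of the reported calls were kept. For R2G at 38 against 36 h the count ranged from 4501 to 5573 with 1 sample left out. It ranged from 3175 to 4722 for EG, 1509 to 1941 for 14 against 12 h, 7090 to 7826 for the difference between the 2 R2G steps and 2771 to 3565 for 40 h against control. At 32 h against control it ranged from 2023, without replicate 1 of the control, to 4151. The R2G minus EG difference gave 0 to 24 genes with 1 sample left out, 0 with a pseudocount of 0.1 (limma, 1861 at an unadjusted p below 0.05) and 54 with a spread shared by all samples. With a replicate block it gave 2 higher and 0 lower. For R2G at 38 against 36 h, a pseudocount of 0.1 gave 6609 genes, and a replicate block gave 5297 (4369 higher, 928 lower). Same-numbered samples had correlated deviations in the first pairs (0.35 and 0.29) and not in the third (-0.15). In EG the values were 0.245, 0.248 and -0.122. The paper names a randomized blocking design with 3 replicates, but the labels do not say that a replicate number marks a block. The numbers were therefore not taken as pairing, and the replicate block is an alternative. Recovered reads were not used at other times, and changes of genes under a few CPM are limited by few reads.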

Other observations

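Called genes that are neighbours on genome v1.0 (coordinates of the RefSeq table) fell together in short runs. The next gene along the linkage group had also fallen for 83 of 847 fallers with a placed neighbour (9.80%), beside 4.84% of all placed genes, and had also risen for 1145 of 4217 risers (27.2%), beside 24.1%. On linkage group 10, 4 adjacent genes from 712607 to 723820 fell (LOC105171389, LOC105171390, LOC105171584 and LOC105171585, changes from -1.70 to -1.25), all of them on both scalings. On linkage group 15, 3 adjacent genes from 3999778 to 4014935 fell by 1.06 to 2.15. The longest runs of risers were of 7 genes, on linkage group 4 from 779538 to 833755 and on linkage group 6 from 708905 to 743072, and in each 5 of the 7 were also called after scaling. Neighbours can be copies of one another that share reads, and this was not tested.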
